A study of Homo sapiens with 6 samples.

Results

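The 7 genes described here are the FGF receptors FGFR1, FGFR2, FGFR3 and FGFR4, and the insulin receptor family, INSR, IGF1R and INSRR. Their wells were found by locus identifier among the 939 library wells of a siRNA screen, 1 well for each gene, and all 7 came from the kinome library under symbols still in use. The screen was done in SUM149PT, an established cell line of triple-negative inflammatory breast cancer, and asked which knockdown adds to the effect of eicosapentaenoic acid (EPA), an omega-3 fatty acid. Per the labels' protocols, 750 cells per condition were added to siRNA at 45 nM, stood for 48 hours, and were then given EPA at 50 µM for 72 hours or left untreated. Fluorescence of a resazurin reagent, which living cells reduce, was read in 3 EPA-treated columns (replicates 4 to 6 of the deposited table) and 3 untreated columns (replicates 1 to 3). All groups were cells of the same line with the same siRNAs, and the labels mention no vehicle for the untreated cells. Whether the 3 columns of a group were separate cultures is not stated in the sources used here, and the p-values below therefore cover only column-to-column spread, which may be technical.

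Both families are receptor tyrosine kinases. FGF receptors bind fibroblast growth factors together with heparan sulfate or a Klotho protein, dimerise and phosphorylate the adaptor FRS2, which recruits GRB2 and SOS and so feeds the RAS-RAF-ERK cascade. Insulin and IGF1 receptors are preformed dimers that phosphorylate the IRS adaptors and act mainly through PI3K, AKT and MTOR, while INSRR, their orphan relative, responds to alkaline pH. In breast cancer FGFR1 is known as an amplified gene, FGFR2 as a gene near an inherited risk locus, and IGF1R as a receptor of survival signals. The amount of each target left after knockdown was not measured in the data used here, fewer living cells and less reduction per cell cannot be told apart in this reading, and the siRNA sequences were not used here.

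The scale of the assay was set by controls. Over the median of their wells, cells alone read 21651 ± 3070 units with EPA and 51168 ± 625 untreated (SD, n = 3 each), the negative control siRNA OTP3 read 21951 ± 4049 and 49147 ± 1644, and the library median read 13565 ± 1404 and 22991 ± 1184. The positive control siRNA TOX (3834 ± 123 with EPA, 4539 ± 277 untreated) lay close to the blank wells (3926 ± 36.7 and 3787 ± 19.2). EPA took less signal near the plate border: cells alone kept 92.1% ± 2.97 (SE) of their untreated signal in plate row 1, 65.5% ± 4.36 in row 2, 51.5% ± 3.97 in row 3 and 45.6% ± 3.81 in row 4. IGF1R (plate 2, row 1, column 7) and FGFR1 (plate 1, row 2, column 24) sat in edge wells, which are rows 1 and 16 and column 24 and hold 16.9% of the library wells. FGFR2, FGFR3 and FGFR4 shared row 4 of plate 1, in columns 6, 8 and 10, and INSR and INSRR shared row 3 of plate 2, in columns 9 and 11, so members of each of these sets have the same plate row behind them.

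FGFR1 was the receptor whose siRNA left the most signal. Its well read 54032, 50971 and 49642 units in EPA replicates 4, 5 and 6, against 55168, 62809 and 55608 in untreated replicates 1, 2 and 3. The EPA values were all below the untreated ones, but by little: 89.1% ± 4.43 (SE) of the signal was left (two-sided exact permutation p = 0.1, which is the floor for 3 columns against 3). As a share of the OTP3 median of its plate, FGFR1 stood at 215% ± 45.9 with EPA and 114% ± 11.6 untreated (SD, n = 3 each). On its plate the FGFR1 well was the highest of 20 library wells in row 2 and the second highest of 16 in column 24, in both groups. The cells alone in row 2 of that plate kept 70.2% ± 7.15 of their signal, and the library median of column 24 kept 76.5% ± 5.33.

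FGFR2, the receptor of the keratinocyte growth factors in its epithelial splice form, was the lowest of the 7 without EPA. Its well read 15640, 10224 and 11593 units in the EPA replicates, against 12087, 11996 and 14733 in the untreated ones. The groups overlapped, and 96.5% ± 14.2 (SE) of the signal was left (exact permutation p = 0.8), beside 52.7% ± 6.41 in cells alone of the same row and 56.1% ± 4.76 in the library median of that row. Relative to OTP3 the FGFR2 well stood at 50.6% ± 1.70 with EPA and 25.3% ± 2.10 untreated.

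FGFR3, known as a receptor of skeletal growth and of urothelial cancer, read 14750, 13132 and 11591 units with EPA, against 16829, 18160 and 18096 untreated. The groups did not overlap, and 74.4% ± 5.47 of the signal was left (exact permutation p = 0.1). FGFR4, the receptor through which FGF19 lowers bile acid synthesis in liver, read 10583, 9831 and 9682 units with EPA, against 20761, 17323 and 17887 untreated. This was the steepest loss among the 7 receptors: every EPA value lay far below every untreated value, and 53.8% ± 3.41 was left (exact permutation p = 0.1), close to the cells alone of that row. With the blank level removed first, 41.3% ± 3.53 of the FGFR4 signal was left. On that scale the cells alone of its row kept 48.8% ± 6.91 and the library median of the row 47.4% ± 5.40. FGFR3 stood at 54.6% ± 11.1 of OTP3 with EPA and 34.7% ± 1.73 untreated, while FGFR4 stood at 41.9% ± 8.61 and 36.6% ± 4.03, the groups overlapping for FGFR4 alone among the 7 (exact permutation p = 0.5).

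INSR, the insulin receptor, read 21731, 14006 and 16498 units with EPA, against 22983, 19853 and 18632 untreated. The groups overlapped, and 85.0% ± 12.3 of the signal was left (exact permutation p = 0.3). INSRR, in the same row, read 31236, 23879 and 22537 units with EPA, against 38777, 32599 and 35253 untreated, without overlap and with 72.8% ± 8.44 left (exact permutation p = 0.1). Around them in row 3 the single well of cells alone kept 48.6% ± 4.40, the OTP3 wells kept 50.2% ± 5.86, and the library median kept 76.7% ± 9.61.

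IGF1R, the receptor for insulin-like growth factors, was the receptor with no loss in its mean. Its well read 45731, 32648 and 38278 units with EPA, against 36237, 33738 and 43260 untreated. The groups overlapped widely, and 103% ± 12.7 of the signal was left (exact permutation p = 0.8). In row 1 of that plate cells alone kept 95.6% ± 5.37, OTP3 kept 83.8% ± 6.41 and the library median kept 85.1% ± 7.5, so the wells around IGF1R lost little too. Relative to OTP3 of the whole plate IGF1R stood at 175% ± 8.66 with EPA and 71.7% ± 7.38 untreated, INSRR at 117% ± 8.07 and 67.6% ± 5.37, and INSR at 77.8% ± 3.93 and 39.0% ± 4.62. In row 3, the row of INSRR and INSR, the 2 OTP3 wells averaged 27183 ± 5450 units with EPA and 54120 ± 1297 untreated (SD). The means of INSRR (25884 ± 4683 and 35543 ± 3099) and of INSR (17412 ± 3943 and 20489 ± 2244) lay below them in both groups.

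**Figure D1:**
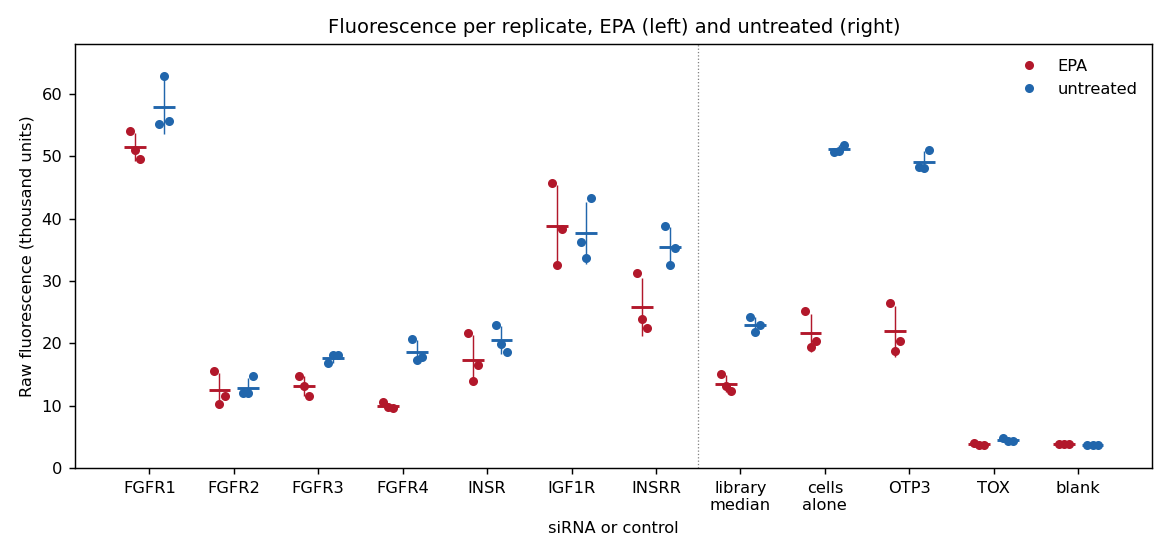
Raw fluorescence for the 7 receptor siRNAs and, right of the dotted line, the library median and the medians of the control wells; points are replicates, horizontal bars means and vertical bars SDs, with EPA left of untreated. FGFR1, FGFR3, FGFR4 and INSRR lie lower with EPA without overlap, while FGFR2, INSR and IGF1R overlap. Cells alone fall to 21651 units with EPA, against 51168 untreated.

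Levels were then compared with the rest of the library, as log2 of fluorescence over the library median of the same plate and replicate, in limma across all 939 wells with Benjamini-Hochberg adjustment (called at an adjusted p under 0.05). With EPA, FGFR4 was lower than the library median at -0.58 (SE 0.107, limma adjusted p = 0.000594), and FGFR1 at 1.78, IGF1R at 1.39 and INSRR at 0.80 were higher. INSR at 0.22, FGFR3 at -0.20 and FGFR2 at -0.29 (limma adjusted p = 0.105, 0.107 and 0.0526) were not called. So 1 of 7 was lower and 3 of 7 higher, where 37.0% and 36.4% of all library wells were, and the median receptor stood at 0.22, against 0.035 over all wells. From the highest to the lowest receptor, only FGFR3 and FGFR2 overlapped in their replicates among neighbours in this order.

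Without EPA, FGFR2 at -0.90 (SE 0.121, limma adjusted p = 8.95e-05), FGFR3 at -0.45 and FGFR4 at -0.37 were lower than the library median, and FGFR1 at 1.26 (SE 0.0756), IGF1R at 0.61 and INSRR at 0.53 were higher. INSR stood at -0.26 (limma adjusted p = 0.0572). These were 3 lower and 3 higher of 7, beside 35.6% and 33.9% of all library wells. Neighbours in the order overlapped for IGF1R and INSRR, for INSR and FGFR4, and for FGFR4 and FGFR3, and FGFR2 stood below the rest in every replicate. FGFR4 was no longer called without untreated replicate 2 (-0.32, limma adjusted p = 0.0627) or without untreated replicate 3 (-0.35, limma adjusted p = 0.0625).

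The negative control gives another scale, since most library wells read below it. Centred on OTP3 of the same plate, 6 of the 7 receptors were lower without EPA, as 91.8% of library wells were, with FGFR2 at -1.99, FGFR3 at -1.53, FGFR4 at -1.46, INSR at -1.36, INSRR at -0.57 and IGF1R at -0.49. FGFR1 (0.18, limma adjusted p = 0.114) was the exception. With EPA 4 receptors were lower than OTP3 (FGFR4 at -1.27, FGFR2 at -0.98, FGFR3 at -0.89, INSR at -0.36), beside 64.6% of library wells, and FGFR1 (1.09) and IGF1R (0.81) were higher, beside 13.5%. This centring takes the OTP3 wells of the whole plate and does not account for the row of a well. In row 1 of plate 2, the row of IGF1R, the 2 OTP3 wells averaged 51754.5 ± 6028 units with EPA and 61740.7 ± 3901 untreated (SD). The IGF1R well read below them in both groups, at 38885.7 ± 6563 and 37745 ± 4937, so it was not higher than the OTP3 of its own row.

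The edge wells FGFR1 and IGF1R were the receptors whose levels moved most with median polish. After median polish, which removes row and column medians from each plate, FGFR1 stood at 0.13 with EPA and 0.41 untreated, called higher in the untreated group alone, and IGF1R at 0.091 with EPA and -0.13 untreated, called in neither. INSRR was higher in both groups, at 0.82 with EPA and 0.84 untreated, and FGFR2 was lower in both groups, at -0.33 and -0.65. FGFR3 (0.037 with EPA, -0.45 untreated) and INSR (-0.022 and -0.38) were lower in the untreated group, and FGFR4 (-0.20 and -0.047) in neither. Median polish gave 1 receptor lower and 1 higher of 7 with EPA, beside 30.4% and 30.6% of library wells, and 3 lower and 2 higher untreated, beside 27.6% and 26.5%. Against the library median of its own plate row, FGFR1 was still called higher, at 1.18 with EPA and 1.07 untreated. Of all library wells 32.3% and 29.7% were called higher there. IGF1R, at 0.10 and -0.18, was called in neither group. Beyond these centrings the part of plate position in each value was not tested.

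**Figure D2:**
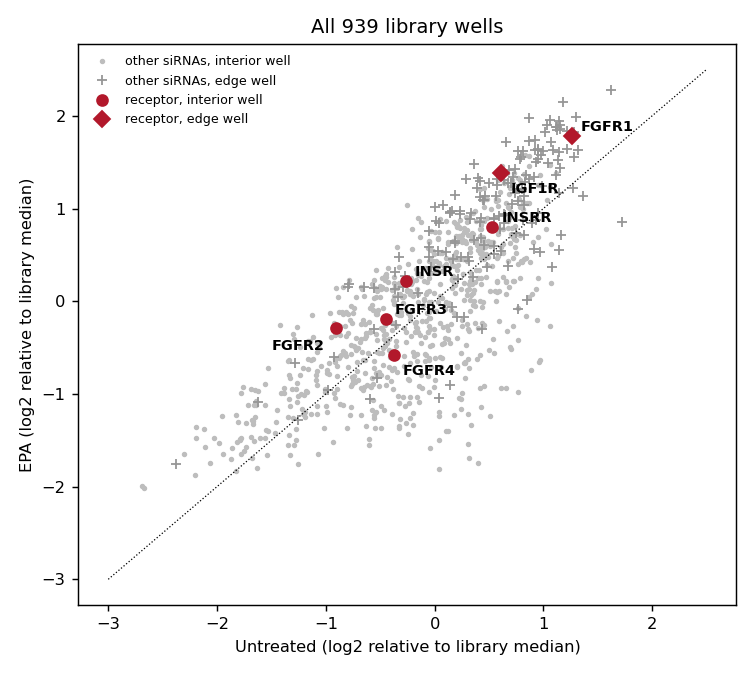
Log2 fluorescence relative to the plate's library median, EPA mean against untreated mean (n = 3 each), for all 939 library wells; red symbols are the receptors, crosses and diamonds mark edge wells, and the dotted line marks equal values. FGFR4 (-0.58 with EPA, -0.37 untreated) is the receptor below the line, and FGFR1 and IGF1R lie among the edge wells at the upper right.

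EPA minus untreated is the comparison the screen was built for. A negative value means that the well lost more signal with EPA than the library median of its plate did. None of the 7 receptors was called lower, and 4 were called higher: IGF1R at 0.77 (SE 0.149, limma adjusted p = 0.00308), FGFR2 at 0.62 (SE 0.171, limma adjusted p = 0.0158), FGFR1 at 0.52 (SE 0.107, limma adjusted p = 0.00419) and INSR at 0.48 (SE 0.159, limma adjusted p = 0.0335). Of all library wells 15.2% were called lower and 29.0% higher. INSRR at 0.27 (limma adjusted p = 0.0853, unadjusted p = 0.0437), FGFR3 at 0.25 (limma adjusted p = 0.183) and FGFR4 at -0.21 (limma adjusted p = 0.286) were not called. The median receptor stood at 0.48 and the median library well at 0.20, so a well at 0 lost more than the median well. On this log2 scale the EPA and untreated replicates did not overlap for any of the 7, with 6 higher and FGFR4 lower, where 36.0% and 18.8% of library wells were so separated.

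For FGFR4, the 95% interval of the difference ran from -0.54 to 0.13, and for the other 6 receptors the lower bounds lay between -0.073 (FGFR3) and 0.44 (IGF1R). Of wells called lower in the other receptor tyrosine kinases, FLT1, a VEGF receptor, stood at -2.01 and EPHA2, an Eph receptor, at -1.63, both below the interval of each of the 7.

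The 4 higher calls depended on the centring. Quantile normalization put FGFR1 at -0.045 (limma adjusted p = 0.755), and with the median EPA minus untreated difference of the library set to 0, FGFR2 stood at 0.47 (limma adjusted p = 0.0570) and INSR at 0.27 (limma adjusted p = 0.203), none of them called. With the library median of the same plate row as the centre, FGFR2 stood at 0.76 (limma adjusted p = 0.00747) and was the receptor still called, beside 19.9% of library wells called higher; IGF1R was at 0.28, INSR at 0.15 and FGFR1 at 0.11. After median polish FGFR2 stood at 0.32, INSR at 0.36, IGF1R at 0.22 and FGFR1 at -0.28, none of them called, while FGFR3, at 0.49 (limma adjusted p = 0.0288), was, beside 16.3% of library wells called higher and 14.8% lower; with blank subtraction as well no receptor was called (FGFR3 at 0.58, limma adjusted p = 0.0577; FGFR1 at -0.42, limma adjusted p = 0.0859), beside 13.7% higher and 15.5% lower in the library. Centred on OTP3 all but FGFR4 (0.18) were called higher, between 0.64 (FGFR3) and 1.29 (IGF1R), beside 58.1% of library wells. FGFR2 was not called without untreated replicate 2 (0.56, limma adjusted p = 0.0503), and INSR was not called in 5 of the 6 fits that left out 1 replicate, all but that without EPA replicate 5 (0.59).

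**Figure D3:**
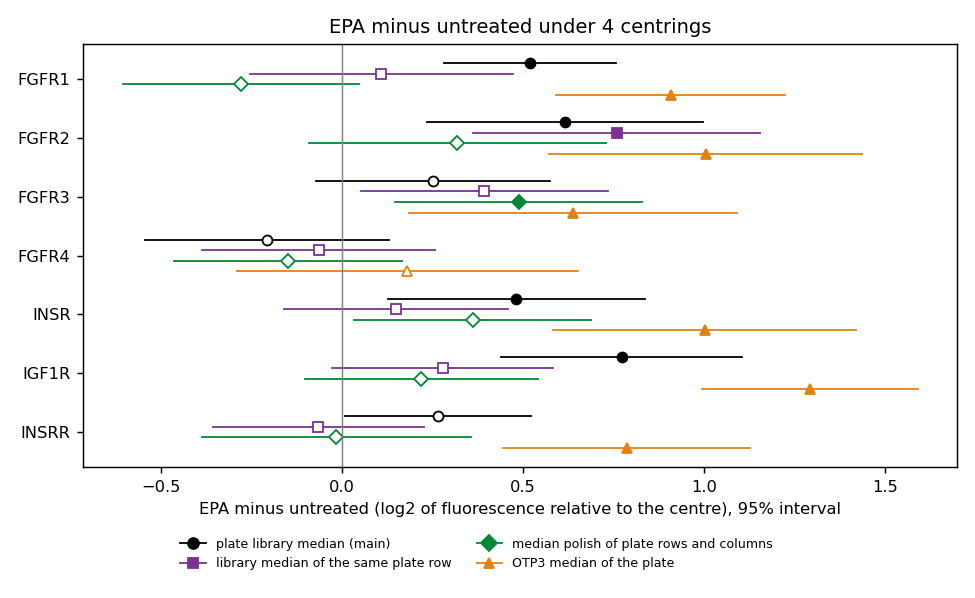
EPA minus untreated for each receptor siRNA on the log2 scale with 95% intervals (n = 3 columns per group), under 4 centrings; filled symbols are called at a limma adjusted p under 0.05 and open ones are not. FGFR1, at 0.52 relative to the plate's library median, stands at -0.28 after median polish, and FGFR4 is called under none of the 4.

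Against the cells alone in its own plate row, a centre chosen after seeing the data, FGFR2 stood at 0.88, INSR at 0.80 and INSRR at 0.58 in EPA minus untreated, all 3 called higher beside 50.4% of library wells. FGFR3 was at 0.51, FGFR1 at 0.35 (limma adjusted p = 0.0510), IGF1R at 0.11 and FGFR4 at 0.052, not called. In levels, FGFR2 was at -1.14 with EPA and -2.01 untreated and FGFR4 at -1.43 and -1.48. Both wells were called lower than the untransfected cells of their row in both groups. So were 70.2% of library wells with EPA and 94.8% untreated. For FGFR4 the 95% interval of EPA minus untreated ran from -0.41 to 0.52. The FGFR1 well was at 0.44 with EPA, called higher as 6.18% of library wells were, and at 0.091 untreated. IGF1R was lower than the cells of its row in both groups, at -0.69 with EPA and -0.79 untreated, as 70.2% and 94.8% of library wells were.

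**Figure D4:**
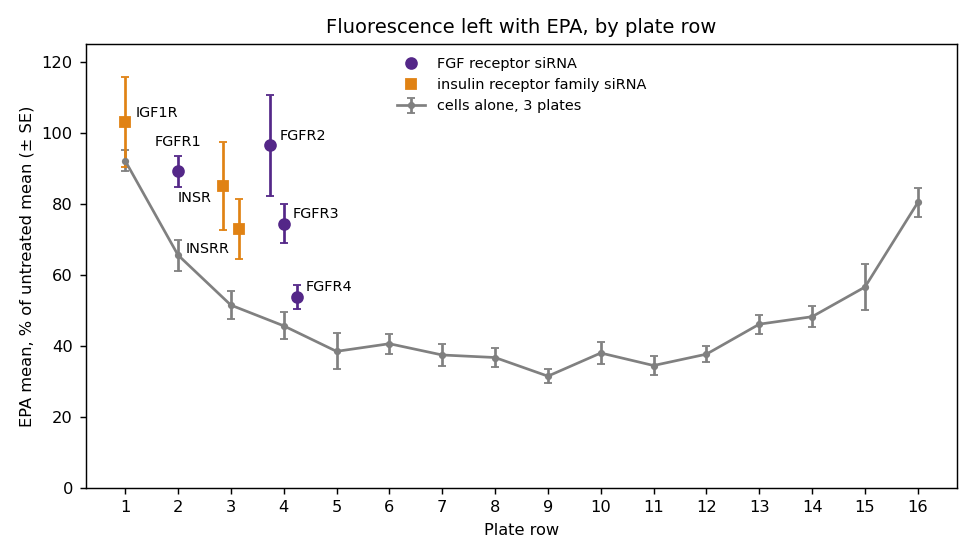
Mean fluorescence with EPA as a percent of the untreated mean (± SE, n = 3 columns per group), by plate row, for the receptor wells (symbols) and for cells alone averaged over the 3 plates (grey line). Cells alone keep 92.1% in row 1 and 45.6% in row 4; in row 4 FGFR4, with 53.8% left, lies nearest the line and FGFR2, with 96.5% left, farthest above it.

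Within a row the receptors can be set against each other with the row in common. In row 4 of plate 1, FGFR2 minus FGFR4 was 0.29 ± 0.255 with EPA and -0.53 ± 0.250 untreated (log2, SD, n = 3 each), a shift of 0.82 (SE 0.206), and FGFR3 minus FGFR4 was 0.39 ± 0.113 and -0.073 ± 0.201, a shift of 0.46 (SE 0.133). Neither overlapped between groups (exact permutation p = 0.1 each). FGFR2 minus FGFR3 shifted by 0.37 (SE 0.162) and overlapped, and so did INSR minus INSRR in row 3 of plate 2, at 0.22 (SE 0.115; exact permutation p = 0.2 and 0.3). Over all 21 pairs of receptors 11 did not overlap, and after Benjamini-Hochberg adjustment over the pairs the lowest exact permutation p was 0.191. At 3 columns against 3 this test cannot pass 0.05, so it leaves each shift as a size with its SE.

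The 13 library siRNAs that were spotted on 2 wells show how far 1 reagent can differ between positions. Their wells differed by a median of 0.37 in EPA minus untreated (0.026 to 0.71, log2 relative to the plate's library median), by 0.64 in the EPA level and by 0.56 in the untreated level. In size, the shifts of INSR, FGFR1 and FGFR2 lie within that range of differences, and that of IGF1R (0.77) lies just above it. The measures are not alike, since a shift is set against the plate's library median and not against another well of the same siRNA. So the range gives a scale and no test. Each receptor had 1 well, so no such comparison exists for the receptors themselves.

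The downstream pathways were followed in gene lists. In the RAS-RAF-ERK list 12 of 13 genes were measured: in EPA minus untreated 3 were called higher and 1 lower (median 0.017), beside 29.0% and 15.2% of library wells. MAP2K1, the kinase MEK1, stood at -0.70 (SE 0.186, limma adjusted p = 0.0128), and its well read 6146 ± 15.6 with EPA and 16888 ± 3324 untreated, without overlap. After median polish 1 gene of the list was called higher and none lower, beside 16.3% and 14.8% of library wells (MAP2K1 at -0.39, limma adjusted p = 0.0620). Set against the library median, 7 of the 12 were called lower with EPA and 3 higher, and untreated 6 were lower and 3 higher; over the library these shares were 37.0% and 36.4% with EPA and 35.6% and 33.9% untreated.

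In the PI3K-AKT-MTOR list 17 of 18 genes were measured on 18 wells, AKT1 on a pair of wells. In EPA minus untreated 5 wells were called higher and 2 lower, beside 29.0% and 15.2% of library wells (median 0.34, against 0.20 over the library). MTOR, the kinase of the nutrient-sensing mTOR complexes, stood at -1.54 (SE 0.197, limma adjusted p = 0.000549), its well at 5337 ± 653 with EPA and 25027 ± 3849 untreated. GSK3B, which AKT phosphorylates and inhibits, stood at -0.71 (limma adjusted p = 0.00362) in an edge well, and PIK3R1, the regulatory subunit of PI3K, at 0.59 (limma adjusted p = 0.00476). After median polish 2 were lower (MTOR at -1.44, GSK3B at -0.998) and 3 higher, beside 14.8% and 16.3% of library wells. Set against the library median, 6 of the 18 wells were called lower with EPA and 7 higher, and untreated 7 were lower and 4 higher, beside the same library shares as above.

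Of 18 listed ligands, coreceptors and adaptors, 2 were in the library. SHC1, an adaptor to GRB2, stood at 0.71 in EPA minus untreated (SE 0.185, limma adjusted p = 0.0118), and IRS1, the insulin receptor substrate, which lay in the same row of plate 2 as INSR and INSRR, at 0.40 (limma adjusted p = 0.105, and named here after its value was seen). Neither was called after median polish (0.28 and 0.063). Among 50 other receptor tyrosine kinases 7 were called lower and 14 higher, with a median of 0.22. All library wells had 15.2% lower, 29.0% higher and a median of 0.20, and the 7 receptors had 0 and 4 with a median of 0.48. After median polish these kinases had 9 lower and 8 higher with a median of 0.044, all library wells 14.8% and 16.3% with a median of 0.065, and the 7 receptors 0 and 1 with a median of 0.22.

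The library siRNAs nearest to each receptor over the 6 columns, by Euclidean distance on the log2 scale, are a description of these wells. FGFR1 lay nearest to CHRM1, a muscarinic receptor (distance 0.19), and MAP4K2 (0.31), both in row 1 of a plate. RPS6KB1, the S6 kinase (0.38), was among the nearest to FGFR2. FGFR3 lay nearest to PDGFRA (0.26) and AK8 (0.29), and FGFR4 to PAK5 (0.23) and CCR6 (0.30). INSR lay nearest to STK16 (0.24) and PTK7 (0.30), IGF1R to RAC1 (0.33) and CSK (0.38), and INSRR to RIPK4 (0.22) and CDKL1 (0.31). RAC1 and CDKL1 were in edge wells as well.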

How the data were processed

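The deposited table gives 1 raw fluorescence intensity per well and column, per the file headers. A normalization step is not given in the sources used here; blank wells keep their reading, so the blank level was not taken off. Column headings give the group but not the numbered sample, so columns were assigned to groups only.

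The table holds 1152 wells on 3 plates. Well positions were read along rows of 24, which puts every blank well in column 1. From each intensity the log2 ratio to the library median of its plate and column was taken, without filter or pseudocount. limma 3.58.1 in R 4.3.3 (trend and robust options) fitted a mean per group to 939 library wells over 6 columns, with two-sided tests and Benjamini-Hochberg adjustment over all wells. Single values were compared by exact permutation (SciPy 1.17.1). The fit was tested on simulated data. Precision is limited by 3 columns per group and 1 well per gene.

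The members, lists and tests were chosen with earlier results of these data known. Named genes are the 7 receptors, the nearest 2 wells to each, and up to 3 called genes per list with the largest moderated statistic; some genes that this rule picks are not reported here. Alternatives covered centring, blank subtraction (floored at 3 blank SDs), plate position, quantile normalization, variance options and leaving out each replicate; same-row cells alone and leaving out edge wells were added after seeing the data.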

Additional observations from a re-analysis of the deposited data

How the results depend on the processing

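No paired analysis was possible because the deposited columns are numbered 1 to 6 through both groups and carry no shared replicate number. Of 316 receptor values on the log2 scale under 16 alternatives, 239 kept their direction and side of the threshold. Another 32 lost the call, 21 gained it and 24 changed direction, of which 9 were called in neither fit. Some values could not change: those without the variance options, those without edge wells, and levels of 1 group when a replicate of the other group was left out. For these only the call could move, so the 239 include values whose direction was fixed beforehand. The cause of the changes was not tested except where the centre itself changed. Leaving out the edge wells, and so FGFR1 and IGF1R, changed no call of the other 5 receptors. Their log2 values could not move, because the plate medians used as the centre still included the edge wells. Only the estimate of spread and the set of wells in the adjustment changed, so this is no test of the edge wells' part in the values.

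In EPA minus untreated, FGFR1 was at -0.28 after median polish, -0.42 with blank subtraction too, -0.045 after quantile normalization, 0.11 against the same-row library median and 0.35 against same-row cells alone. FGFR2 was at 0.32 after median polish, 0.37 with both corrections and 0.47 centred on the median difference. IGF1R was at 0.22, 0.21, 0.28 (same-row library median) and 0.11 (same-row cells alone), and INSR at 0.36, 0.41, 0.15 (same-row library median) and 0.27 (median difference), none of them called. FGFR4, at -0.21 relative to the plate's library median, was at 0.18 after OTP3 centring and 0.052 against same-row cells alone. It was lower, at -0.35, centred on the median difference (limma adjusted p = 0.0968) and at -0.40 with blank subtraction (limma adjusted p = 0.158). FGFR4 was at -0.15 after median polish, -0.14 with both corrections, -0.065 against the same-row library median and -0.055 after quantile normalization. INSRR was at -0.016 after median polish and -0.067 against the same-row library median. None of these FGFR4 and INSRR values was called. FGFR3 was called after OTP3 centring (0.64) and median polish (0.49), and INSRR after OTP3 centring (0.79), blank subtraction (0.40) and against same-row cells alone (0.58). Leaving out 1 replicate gave 0.52 to 0.72 for FGFR2 and 0.40 to 0.59 for INSR.

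With EPA, FGFR1 was at 0.13 after median polish and -0.013 with blank subtraction too. FGFR2 was called after OTP3 centring (-0.98), against same-row cells alone (-1.14), after median polish (-0.33), with both corrections (-0.51) and without the variance options (-0.29). FGFR3 was called after OTP3 centring (-0.89) and against same-row cells (-1.05), and not after median polish (0.037) or both corrections (0.025). FGFR4 was not called after median polish (-0.20) or both corrections (-0.21). IGF1R was at 0.091, 0.063 and 0.10 after median polish, both corrections and same-row centring, and at -0.69 against same-row cells. INSR was at -0.36 (OTP3 centring), -0.62 (same-row cells) and 0.30 (quantile normalization), and uncalled at -0.022 (median polish), -0.00022 (same-row library median) and -0.037 (both corrections), and INSRR at 0.22 (OTP3 centring) and -0.042 (same-row cells). Leaving out 1 replicate gave -0.39 to -0.19 for FGFR2, called without EPA replicate 4 (-0.39), and 0.13 to 0.33 for INSR, called without EPA replicate 5 (0.33).

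Untreated, FGFR1 was at 0.18 (OTP3 centring) and 0.091 (same-row cells), and FGFR4 at -0.047 and -0.069 after median polish and both corrections. IGF1R was at -0.49 (OTP3 centring), -0.13 (median polish), -0.18 (same-row library median), -0.14 (both corrections) and -0.79 (same-row cells). INSRR was at -0.57 and -0.62 against OTP3 and same-row cells, and INSR at -1.36, -1.42, -0.38 (median polish), -0.44 (both corrections) and -0.26 (without the variance options), each called. Leaving out 1 replicate gave -0.45 to -0.32 for FGFR4 and -0.29 to -0.22 for INSR, called without EPA replicate 5 (-0.26).

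After blank subtraction FGFR2 stood at 40.9% of OTP3 with EPA and 19.3% untreated, FGFR4 at 30.7% and 31.5%, FGFR3 at 29.4% untreated, and INSR at 72.9% and IGF1R at 192% with EPA, while 41.3% of the FGFR4 signal was left. Library wells called lower in EPA minus untreated numbered 143, against 59 with OTP3 centring and 70 with same-row cells alone. Those called higher numbered 272, against 546 with OTP3 centring, 473 with same-row cells alone, 153 after median polish, 129 with both corrections, 158 after quantile normalization and 131 centred on the median difference. A signal can fall no further than the blank level, which limits how large a loss can be read.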
